A study of Mus musculus with 6 samples.

Results

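The proteasome genes described here are the 33 constitutive subunits listed by symbol, from the 20S core and the 19S cap, without the interferon-inducible subunits. All 33 have a row in the deposited table of 24421 gene symbols, and all 33 passed the filter on low counts, with 347 to 4284 counts per gene and library. RNA was sequenced from C2C12, a line of mouse myoblasts able to form myotubes when serum is lowered. One group received a lentivirus with a hairpin against Gaa, the gene of acid alpha-glucosidase, which breaks down glycogen in lysosomes (shGAA, n = 3 libraries). The other received a scrambled hairpin (shScrambled, n = 3 libraries). Both groups were selected with puromycin and differentiated in 2% horse serum with 4.5 g/l glucose after growth in 10% fetal bovine serum, and the sample titles of both carry the word Fed, which the labels do not explain. All cells are of 1 line. The number of hairpins is not stated, nor is it stated that libraries come from independent cultures, so a p-value here covers the spread among libraries only and that spread may be technical.

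The proteasome is the cell's main protease for proteins tagged with ubiquitin. Its 20S core is a stack of alpha and beta rings, with the cutting sites inside the beta rings and a gate formed by the alpha rings. The 19S cap binds ubiquitin chains, removes them, unfolds the substrate with a ring of ATPases and feeds it into the core. In muscle this system degrades myofibrillar proteins, and its subunit genes are known to be transcribed in a coordinated way, in part through the transcription factor NRF1 (gene Nfe2l1).

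The libraries held 9224038 to 10430270 counts. Gaa, the target of the hairpin, was at 47.9, 47.5 and 51.9 CPM (read counts relative to the TMM-scaled library total) in shGAA 1 to 3 and at 106.1, 124.4 and 119.4 in shScrambled 1 to 3. That is a log2 fold change of -1.25 ± 0.07 (SE, 3 libraries per group, edgeR adjusted p = 1.09e-09). Of the myotube markers, 6 of 9 tested fell. The summed level of all 10 was 736 to 817 CPM in shGAA against 1332, 1015 and 1068 in shScrambled 1 to 3. Markers of undifferentiated myoblasts summed to 328 to 342 against 267 to 271 CPM, with 3 of 5 tested higher and 1 lower. Of all tested genes, 19.7% were called lower and 18.5% higher. The leukocyte list summed to 1.32 to 2.15 CPM in shGAA and 2.36 to 2.56 in shScrambled (Cd3e at 0), the osteoblast and chondrocyte list at or below 0.409 (Ibsp at 0) and the endothelial list at 2.67 to 5.44. The adipocyte list, at 24.1 to 30.5 CPM in shGAA and 36.0 to 40.9 in shScrambled, was mostly Lpl (26.2 and 38.0 CPM), with Plin1 and Cidec at 0. The library shScrambled 1 stood apart: chi-square divided by its degrees of freedom was 5.87 and 5.31 against the others of its group and 1.95 to 2.54 for the remaining pairs.

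Most constitutive proteasome genes had slightly less RNA in cultures with the Gaa hairpin. Of the 33 subunits, 18 fell and 15 did not pass the test, and 29 had a log2 fold change below 0. The share that fell was 54.5%, beside 19.7% of all 11801 tested genes called lower, 18.5% called higher and 38.2% called in either direction. Among the 5433 tested genes with a control level in the range of the subunits, 25.6% were called lower and 18.4% higher. edgeR called 0 subunits higher, 0 were higher at an unadjusted p under 0.05, and DESeq2 and limma-voom also gave 0. The changes were small. The median log2 fold change was -0.14, a change of -9.28%, beside 0.01 over all tested genes, and the median size of the called changes was 0.16 beside 0.37 for all called genes, with a median SE of 0.05 for the subunits and 0.08 for all tested genes. In bulk RNA, fewer cells with a given level and less RNA per cell cannot be told apart, and the part of the marker shifts given above in this result was not tested.

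The count of 18 depended on scaling and on single libraries. When libraries were scaled by their total count alone (library-size scaling) it was 5. This scaling moved the median of all genes by 0.05 and shifts all genes nearly alike. The median of the subunits relative to all genes therefore had to stay at -0.15, which is no check on the scaling. The count was 8 without shGAA 2, 9 without shGAA 3 and 20 without shScrambled 1. Beside these, 15.6%, 16.0% and 20.9% of all tested genes were called lower. The genes Psma1, Psma5, Psmb3, Psmc4 and Psmd14 kept their call under all 13 alternatives.

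The fall was visible in whole libraries. The 33 genes together held 5351, 5201 and 5105 CPM in the libraries shGAA 1 to 3, and the control libraries held 5634, 5775 and 5605 CPM. The groups did not overlap, and the means differed by -7.97% (-4.915% under library-size scaling). The summed CPM of the 14 core genes changed by -10.2%, and that of the 17 cap genes without the assembly chaperones by -6.76%. In 21 of 33 subunits every shGAA library lay below every shScrambled library, or 63.6%, beside 24.9% of all tested genes and 31.3% of those in the range of the subunits. Subunits varied little within groups, with a median coefficient of variation of 3.33% in shGAA and 3.03% in shScrambled. In 15 of 33 subunits shScrambled 1 exceeded the average of both other control libraries. Relative to the control mean, shScrambled 1 lay farthest below for Psmd8, Psmc3 and Psmb3 and farthest above for Psmd7 and Psma3. The heat map by library sets the genes out one by one.

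**Figure D1:**
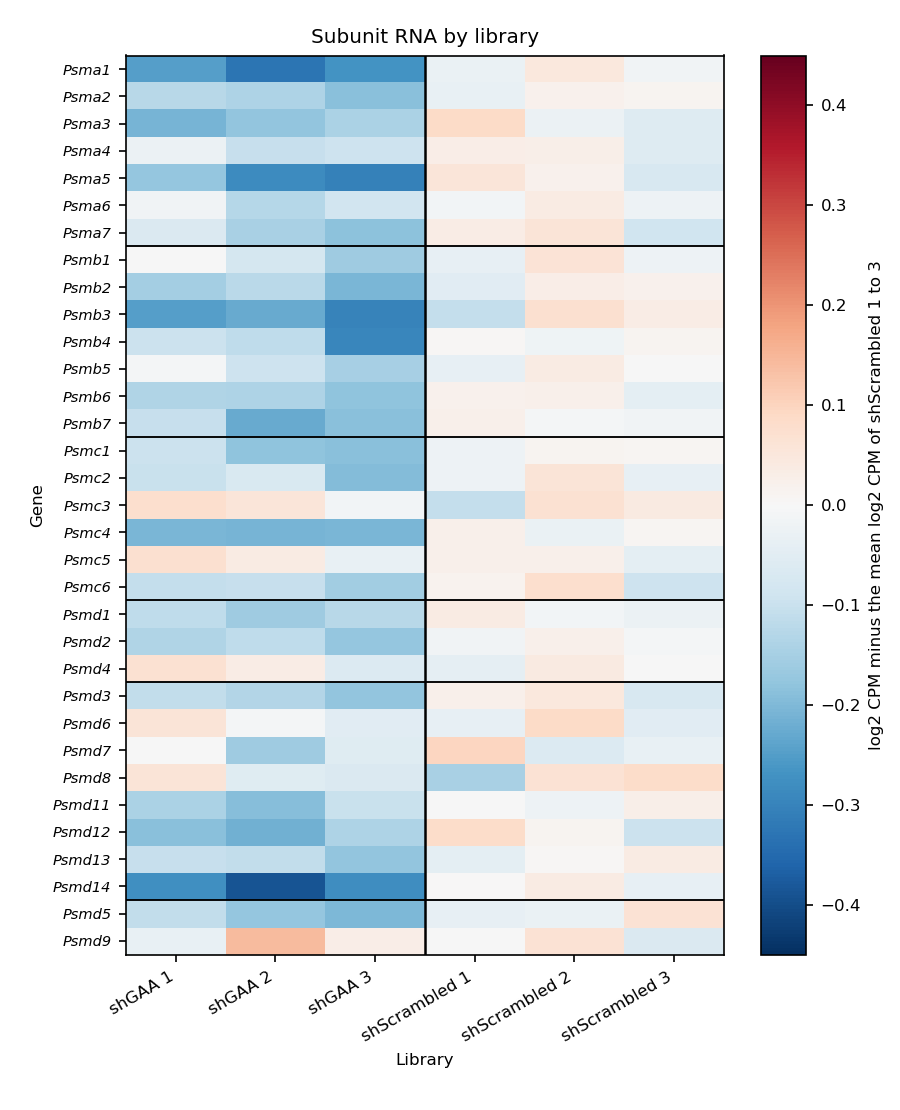
Each cell is the log2 CPM of 1 gene (rows, grouped by part of the particle) in 1 library (columns), minus the mean log2 CPM of that gene in shScrambled 1 to 3. Most rows are blue in all 3 shGAA columns, and the median gene lay at -0.10, -0.13 and -0.17 in shGAA 1 to 3, while Psmc3, Psmc5, Psmd4, Psmd6, Psmd8 and Psmd9 lie on both sides of 0 within shGAA.

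The largest fall was that of Psmd14, whose product (Rpn11) is the metalloprotease of the 19S lid that cuts ubiquitin chains off substrates as they enter the core. Psmd14 (ENSMUSG00000026914.15) lies on chromosome 2 at 61711694 to 61800376 on GRCm38, plus strand. It was at 127.4, 117.9 and 126.9 CPM in shGAA 1 to 3 and at 154.2, 158.1 and 150.3 CPM in shScrambled 1 to 3. No shGAA library reached the lowest control. The means were 124 ± 5.34 and 154 ± 3.89 CPM (SD, n = 3), and the log2 fold change was -0.31 ± 0.05 (edgeR adjusted p = 0.000184), a change of -19.5%. It was followed by Psma1, Psmb3, Psma5 and Psmc4.

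To show the DNA upstream of these genes, up to 200 bases before the annotated start are printed for the 4 largest falls and for the catalytic subunit genes Psmb6 and Psmb5, of which the former fell and the latter did not pass the test. The sequences come from RefSeq on GRCm38.p6, run 5′ to 3′ on the strand of the gene, and stop before the first base annotated as transcribed in RefSeq or GENCODE M21. Capitals mark the letters CCAAT, the core of the NF-Y site, and TGACNNNGC, the core of the antioxidant response element to which NRF1 and NRF2 bind with small Maf proteins, on either strand; CCGGAAG, a core of ETS family sites, was searched too and is not in these stretches.
Psmd14, chr2:61711494-61711693, plus strand: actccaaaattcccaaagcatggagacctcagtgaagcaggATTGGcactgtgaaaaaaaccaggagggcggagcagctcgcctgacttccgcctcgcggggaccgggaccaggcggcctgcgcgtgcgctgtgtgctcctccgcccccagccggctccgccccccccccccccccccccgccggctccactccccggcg
Psma1, chr7:114276119-114276316, minus strand: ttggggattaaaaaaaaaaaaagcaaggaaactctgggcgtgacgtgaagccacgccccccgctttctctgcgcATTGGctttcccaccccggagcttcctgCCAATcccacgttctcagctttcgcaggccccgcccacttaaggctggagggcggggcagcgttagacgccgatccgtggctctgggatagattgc
Psmb3, chr11:97703234-97703398, plus strand: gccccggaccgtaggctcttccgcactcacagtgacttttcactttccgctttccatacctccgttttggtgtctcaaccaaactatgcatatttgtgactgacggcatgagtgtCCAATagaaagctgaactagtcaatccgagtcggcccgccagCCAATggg
Psma5, chr3:108256726-108256925, plus strand: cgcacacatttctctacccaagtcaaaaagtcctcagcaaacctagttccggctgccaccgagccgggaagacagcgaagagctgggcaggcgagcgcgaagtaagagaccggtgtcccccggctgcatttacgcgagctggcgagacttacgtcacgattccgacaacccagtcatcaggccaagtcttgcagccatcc
Psmb6, chr11:70525157-70525356, plus strand: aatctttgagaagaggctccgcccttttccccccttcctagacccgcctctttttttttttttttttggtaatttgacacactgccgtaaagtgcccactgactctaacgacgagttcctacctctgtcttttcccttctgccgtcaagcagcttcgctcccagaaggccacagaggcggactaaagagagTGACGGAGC
Psmb5, chr14:54618023-54618195, minus strand: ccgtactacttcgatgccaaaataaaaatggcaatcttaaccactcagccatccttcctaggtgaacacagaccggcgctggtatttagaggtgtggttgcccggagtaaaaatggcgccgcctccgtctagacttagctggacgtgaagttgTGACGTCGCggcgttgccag

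RefSeq windows of 300 bases around the annotated start were found for 27 of the 33 genes, 29 windows in all, and a gene was counted once where any of its windows held a string. TGACNNNGC occurs in 5 of them (18.5%), beside 17.2% of the 9016 tested genes with a window, namely Psmb5, Psmb6, Psmc6, Psmd9 and Psmd12. Of these, Psmb6 and Psmd12 fell and the other 3 did not pass the test. CCAAT occurs in 10 of 27 genes (37.0%, beside 43.3%), in 6 of the 15 lower genes and in 4 of the other 12. CCGGAAG also occurs in 10 (37.0%, beside 20.8%), in 4 of the 15 lower genes and in 6 of the other 12. The letters GGGCGG, the core of the Sp1 site, occur in 17 (63.0%, beside 70.1%). The tested genes had 11541 windows, more per gene than the subunits, which raises their share by gene. By window their shares were 14.4% for TGACNNNGC, 37.9% for CCAAT, 17.7% for CCGGAAG and 63.2% for GGGCGG. Other strings searched, all on both strands, were a long Maf-type element (0 genes, beside 0.155%), the nuclear respiratory factor 1 palindrome (1, Psma2, or 3.70%, beside 2.47%) and TTTGAA, the cell cycle element CHR (2, or 7.41%, beside 13.8%). Such matches describe the letters in a window and are not binding sites. The strings were chosen with the fold changes known, and Psma5 has none of the strings marked by capitals in its printed stretch.

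In the alpha ring of the core, which forms the gate, all 7 genes had a log2 fold change below 0, and 4 fell (Psma1, Psma2, Psma3 and Psma5). Psma1 was at 98.1, 92.6 and 96.5 CPM in shGAA 1 to 3 and at 113.9, 120.3 and 115.1 in shScrambled 1 to 3, with a log2 fold change of -0.28 ± 0.05 (n = 3 per group, edgeR adjusted p = 0.000495). Psma5 was at 106.2, 98.6 and 97.3 CPM against 124.7, 121.5 and 114.0, a log2 fold change of -0.25 ± 0.06 (edgeR adjusted p = 0.00207). Both genes separated the groups fully. Psma5 shares 49.96% of its 50-base stretches with transcripts of other genes, mainly Gm8394, so its reads may have been split or left out in counting. Psma2 and Psma3 changed by -0.15 ± 0.05 and -0.18 ± 0.05, and Psma3 shares 15.4% of its stretches with other genes. Psma2 kept its call under 6 of the 13 alternatives and Psma3 under 10. The rest did not pass, with Psma7 at -0.13 ± 0.06 (edgeR adjusted p = 0.0678), Psma6 at -0.08 ± 0.05 and Psma4 at -0.07 ± 0.05. Psma7 passed without shScrambled 3 (edgeR adjusted p = 0.0359), where Psma2 lost its call. The count of 4 was 2 without shGAA 2 and 2 under library-size scaling.

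In the beta ring, 5 of 7 genes fell and all 7 were below 0. Psmb3, a subunit without a cutting site, fell most, at 114.9, 116.7 and 110.8 CPM in shGAA 1 to 3 against 126.9, 143.5 and 139.8 in shScrambled 1 to 3, a log2 fold change of -0.26 ± 0.06 (n = 3 per group, edgeR adjusted p = 0.00173). Its control libraries were uneven, with shScrambled 1 the lowest, but that library was still above all 3 shGAA libraries. Psmb3 shares 17.8% of its stretches with other genes. The 3 catalytic subunits were not alike in their calls. Psmb6, which carries the caspase-like site, was at 134.4, 134.1 and 130.1 CPM against 149.7, 150 and 143.2, a log2 fold change of -0.15 ± 0.05 (edgeR adjusted p = 0.0247). Psmb7, which carries the trypsin-like site, was at 159.2, 146.3 and 150.1 CPM against 173.9, 169.9 and 169.4, a log2 fold change of -0.17 ± 0.05 (edgeR adjusted p = 0.0135). Both were lower in every shGAA library than in any control. Psmb5, which carries the chymotrypsin-like site and is the main target of proteasome inhibitor drugs, was at 55.9, 52.7 and 50.8 CPM against 54.9, 57.8 and 56.3. These values overlapped, and its log2 fold change of -0.08 ± 0.07 did not pass (edgeR adjusted p = 0.327). The difference between these subunits was not tested. Psmb5 shares 54.1% of its 50-base stretches with other transcripts, mainly Gm3375, the highest share of the 33 genes. The structural subunits Psmb4 and Psmb2 fell by 0.17 ± 0.06 and 0.16 ± 0.05 on the log2 scale, and Psmb1 was at -0.08 ± 0.05. Psmb4 kept its call under 10 of the 13 alternatives and Psmb2 under 7. The count of 5 was 3 without shGAA 1, shGAA 2, shScrambled 2 or shScrambled 3, 2 without shGAA 3, 1 under library-size scaling and 3 in DESeq2. Psmb6 lost its call without shGAA 1, 2 or 3, without shScrambled 2, under library-size scaling and in DESeq2 (adjusted p up to 0.103). Psmb7 lost its call without shGAA 2 and under library-size scaling (adjusted p up to 0.0811).

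In the ATPase ring of the cap, which unfolds substrates, 2 of 6 genes fell. Beside this, 25.6% of tested genes in the range of the subunits were called lower. The other 4 genes of the ring did not pass, and 2 of these were above 0. Differences between genes of the ring were not tested. Psmc4 was the most even of all subunits within shGAA, at 122.9, 122.6 and 123.1 CPM against 144.0, 139.0 and 142.7 in shScrambled 1 to 3, and changed by -0.21 ± 0.05 on the log2 scale (n = 3 per group, edgeR adjusted p = 0.00342). Psmc1 was at 209.9, 197.8 and 197.1 CPM against 220.7, 226.4 and 225.9, a log2 fold change of -0.15 ± 0.05 (edgeR adjusted p = 0.0176). Its call was lost without shGAA 2, shGAA 3 or shScrambled 3 and under library-size scaling, with edgeR adjusted p up to 0.0808. Psmc6 and Psmc2 were at -0.12 ± 0.05 each (edgeR adjusted p = 0.0687 and 0.0730), with every shGAA library below every control. Psmc2 passed without shScrambled 1 (adjusted p = 0.0361) and Psmc6 without shScrambled 3 (adjusted p = 0.0306). Psmc5 stood at 0.03 ± 0.05 (edgeR adjusted p = 0.722). Psmc3 stood at 0.04 ± 0.05 (edgeR adjusted p = 0.597), but at -0.02 without shScrambled 1, the library with its lowest level, 268.8 CPM. The count of 2 was 1 without shGAA 2 or shGAA 3, 3 without shScrambled 1 and 1 under library-size scaling.

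At the base of the cap, the large scaffold subunits Psmd1 and Psmd2, which link the ATPase ring to ubiquitin receptors, fell. Psmd2 was the most abundant of the 33 genes in CPM, at 404.3, 411.0 and 394.1 in shGAA 1 to 3 against 440.1, 452.1 and 441.8 in shScrambled 1 to 3 (log2 fold change -0.14 ± 0.04, n = 3 per group, edgeR adjusted p = 0.0147), and shares 17.8% of its stretches with other genes. Psmd1 was at 352.3, 341.0 and 350.1 CPM against 391.5, 378.5 and 374.1 (-0.13 ± 0.04, edgeR adjusted p = 0.0230). Both separated the groups by more than their spread within each. The ubiquitin receptor gene Psmd4 (Rpn10) was at 184.1, 179.5 and 167.9 CPM against 170.7, 180.5 and 175.1. Its groups overlapped, at 0.01 ± 0.05 on the log2 scale (edgeR adjusted p = 0.855), and its sign turned without shGAA 1 (-0.01) and without shScrambled 1 (-0.01). Psmd1 lost its call without shGAA 2 or shGAA 3 and Psmd2 without shGAA 3 or shScrambled 2, with adjusted p up to 0.105 and 0.0639. The count of 2 was therefore 1 without shGAA 2 or shScrambled 2, and 0 without shGAA 3 or under library-size scaling.

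The lid, which surrounds Psmd14, had 4 lower genes of 8, and 8 of 8 below 0. After Psmd14 came Psmd12, a scaffold subunit, at 141.5, 138.7 and 146.3 CPM in shGAA 1 to 3 against 170.7, 162.5 and 150.7 in the controls (log2 fold change -0.18 ± 0.06, n = 3 per group, edgeR adjusted p = 0.0159). The groups did not overlap, although shScrambled 3 came close to shGAA 3. The call of Psmd12 was lost without shGAA 1 or shGAA 2 and under library-size scaling (edgeR adjusted p up to 0.0759). Psmd11 and Psmd3, also scaffold subunits, changed by -0.14 ± 0.05 each (edgeR adjusted p = 0.0414 and 0.0359). Psmd11 kept its call under only 5 of the 13 alternatives and Psmd3 under 6, and both lost it in DESeq2 and with the replicate block. Psmd13 was at -0.13 ± 0.05 (edgeR adjusted p = 0.0573) and passed without shScrambled 1 (adjusted p = 0.0238). Psmd7, which pairs with Psmd14, was at -0.07 ± 0.06, Psmd8 at -0.02 ± 0.06 and Psmd6 at -0.0013 ± 0.06, the last 2 turning above 0 under library-size scaling (0.02 and 0.05). The count of 4 was 1 without shGAA 1 or shGAA 2, 2 without shScrambled 2, 2 in DESeq2 and 1 under library-size scaling. Psmd5 and Psmd9 are listed with the subunits but encode chaperones that help assemble the base and are absent from the finished particle. Psmd5 was at 85.8, 82.0 and 80.5 CPM against 90.2, 90.7 and 96.9 (-0.16 ± 0.06, edgeR adjusted p = 0.0314). Its call was lost without shGAA 2, shGAA 3 or shScrambled 3, under library-size scaling, with the replicate block and in DESeq2 (adjusted p up to 0.133). Psmd9 was at 0.05 ± 0.08 (edgeR adjusted p = 0.657), shares 25.0% of its stretches with other genes, mainly the opposite-strand gene Gm26745, and turned to -0.0006 without shGAA 2.

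**Figure D2:**
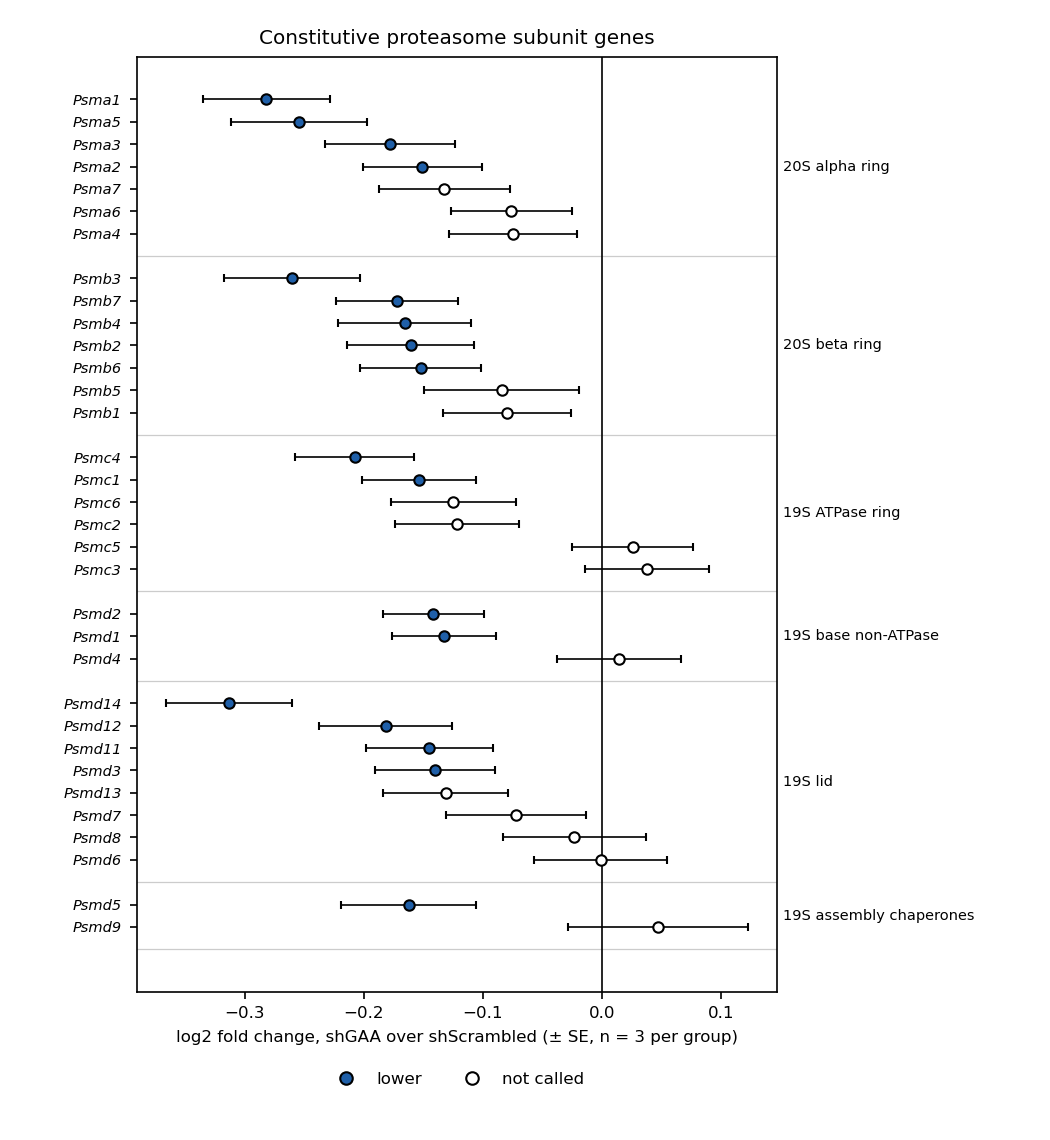
Points are the log2 fold changes of the 33 genes, shGAA over shScrambled, with bars of 1 SE (n = 3 libraries per group), sorted within each part of the particle; filled points passed the edgeR test at an adjusted p under 0.05. The filled points lie between -0.31 and -0.13, and the open points of Psmc3, Psmc5, Psmd4 and Psmd9 lie above 0.

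The log2 fold changes of all 33 genes lay between -0.31 and 0.05. The median was -0.16 for the core genes and -0.13 for the cap genes with the assembly chaperones. All 14 core genes were below 0, as were 15 of the 19 others. Psmd6 and Psmd8, both of the cap, crossed 0 under library-size scaling, leaving 27 of 33 below 0.

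**Figure D3:**
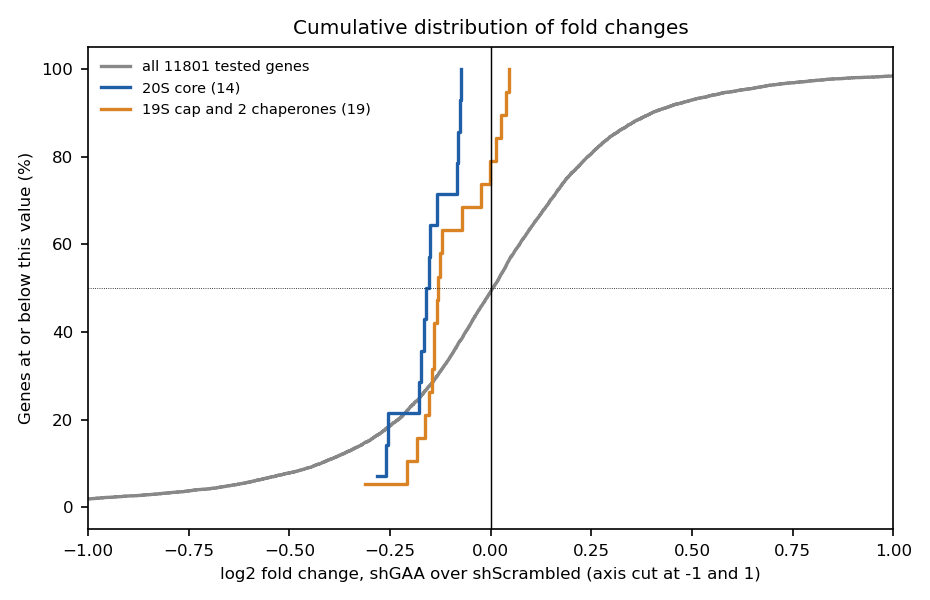
The curves give the share of genes (%) at or below each log2 fold change for all 11801 tested genes, the 14 core genes and the 19 genes of the cap with its 2 assembly chaperones; 50% is dotted. The core and cap curves cross 50% at -0.16 and -0.13, left of the curve of all genes at 0.01, and both are steeper than that curve.

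To set subunits beside each other, CPM was divided by the length of the principal GENCODE M21 transcript. In shScrambled the level per kilobase was highest for Psma7 (187 ± 10.1 CPM per kb, SD, n = 3), Psmb6 (185 ± 4.79), Psmb3 (178 ± 11.4), Psmc3 (177 ± 11.5) and Psmd8 (176 ± 15.1). Neighbours in that order differed by less than the larger of their SDs. It was lowest for the assembly chaperones Psmd9 (14.9 CPM per kb) and Psmd5 (21.1), below Psmd11 (35.0). Highest and lowest differed 12.5-fold, while the median of the core genes was 121 and that of the cap genes 100 CPM per kb. Psma2 and Psma3, at 54.2 and 50.5 CPM per kb, were low for alpha subunits, with annotated principal transcripts of 2911 and 2846 bases. The order depends on the length used: with the merged exons of all coding transcripts, Psmb1 moved from place 16 to place 28. Between the groups no gene moved by more than 6 places, which Psmd14 (place 18 to 24), Psmd6 (24 to 18) and Psmd7 (25 to 19) did.

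**Figure D4:**
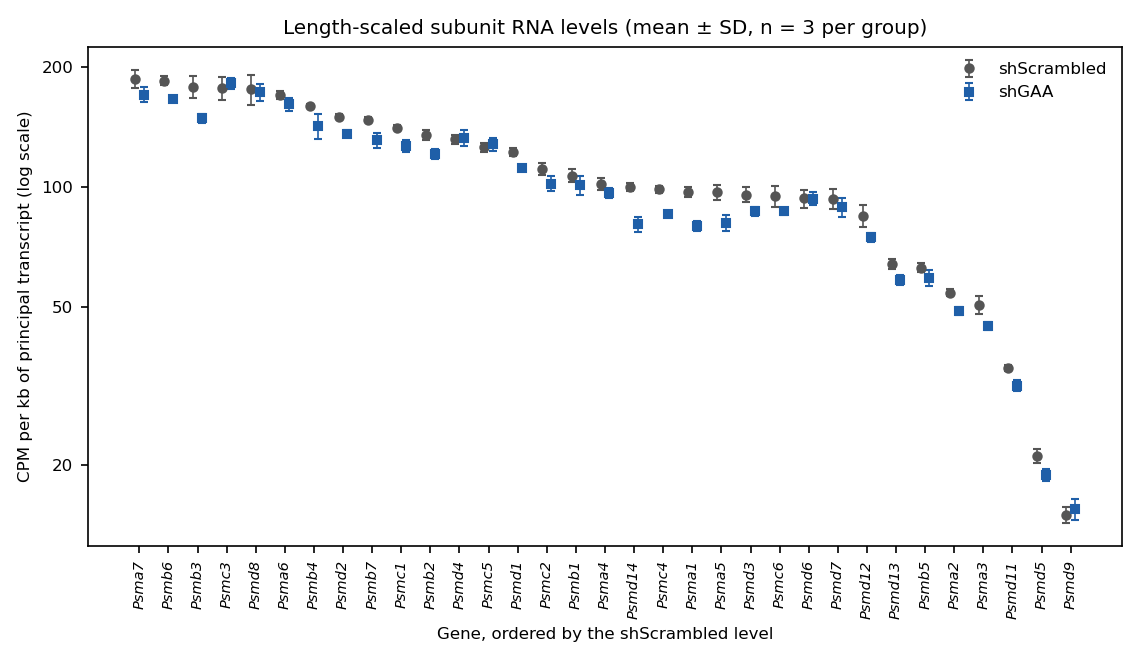
Points are mean CPM per kilobase of principal transcript on a log axis with bars of 1 SD (n = 3 libraries per group), for 33 genes ordered by the shScrambled level. Grey circles (shScrambled) run from 187 for Psma7 to 14.9 for Psmd9, and blue squares (shGAA) lie at or slightly below them in most genes.

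The other genes of the pathway changed in both directions. A list of 50 genes of proteasome assembly, regulation and ubiquitin delivery had 46 tested, of which 13 fell, 6 rose and 27 did not pass. The lower share was 28.3% and the higher share 13.04%, beside 19.7% and 18.5% of all tested genes, and their median log2 fold change was -0.04. The 13 falls were 8 without shGAA 3 and 8 under library-size scaling. Among the 6 rises, Psmb8 passed the filter on low counts only through shGAA. Paaf1 has no row under that symbol, and Psma8, Psmb9 and Psmb11 were too low to test, at 0 counts in all 6 libraries for Psma8 and Psmb11.

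Of the 6 tested assembly factors 2 fell, Pomp and Psmg4. Pomp, a maturation factor needed to complete the core, was at 103.1, 100.7 and 93.1 CPM in shGAA 1 to 3 against 114.3, 114.4 and 117.9 (log2 fold change -0.22 ± 0.06, n = 3 per group, edgeR adjusted p = 0.00412). Psmg4, an alpha ring chaperone, changed by -0.35 ± 0.12 (edgeR adjusted p = 0.0283), a call lost without any one of shGAA 1, 2 or 3 and shScrambled 1 or 2 (adjusted p up to 0.0912), under library-size scaling and in DESeq2 (adjusted p = 0.125). Psmg3, another chaperone of the core, stood at 0.13 ± 0.10 (edgeR adjusted p = 0.368). The enzymes and receptors that sit on the cap had 3 falls of 6, led by Usp14, a deubiquitinase, at 203.3, 207.3 and 220.9 CPM against 266.9, 258.4 and 245.1 (-0.29 ± 0.05, edgeR adjusted p = 0.000293). Usp14 overlaps Thoc1 on the opposite strand over 26.0% of its exonic bases. The ubiquitin receptor gene Adrm1 changed by -0.18 ± 0.06 (edgeR adjusted p = 0.0164), a call lost without shGAA 3 (adjusted p = 0.0878), and shares 25.7% of its stretches with Gm9774 and others. The third fall was Txnl1, at -0.14 ± 0.05 (edgeR adjusted p = 0.0391). Without shGAA 3 or under library-size scaling the 3 falls were 1.

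Of the inducible and tissue-specific subunits, 2 could be tested, Psmb8 and Psmb10, and both rose. Psmb8 passed the filter on low counts only through its shGAA libraries, so its entry into the test depended on the rise itself. Psmb9 was under the filter, with 8, 3 and 11 reads in the shGAA libraries and 4, 0 and 1 in the controls, which overlapped. Psmb8, the interferon-inducible counterpart of Psmb5, was barely detected in the controls, with 1, 2 and 5 reads in shScrambled 1 to 3, beside 36, 28 and 27 reads in the shGAA libraries. Its mean was 0.284 ± 0.224 CPM in the controls and 3.07 ± 0.574 with the Gaa hairpin (SD, n = 3, edgeR adjusted p = 1.13e-05). Psmb10, the counterpart of Psmb7, rose from 13.9 ± 0.375 to 22.1 ± 1.35 CPM (log2 fold change 0.67 ± 0.10, edgeR adjusted p = 8.06e-05). Both stayed below their constitutive counterparts, with Psmb10 at 16.8 CPM per kb in shGAA beside 131 for Psmb7, and Psmb8 at 1.88 beside 59.1 for Psmb5. Of the other caps, Psme1, which encodes a subunit of the interferon-inducible PA28 activator, rose by 0.48 ± 0.08 (edgeR adjusted p = 0.000153). Psme2, its partner, rose by 0.26 ± 0.06, and shares 28.3% of its stretches with Psme2b and others. Psme3, the nuclear form of PA28, fell by 0.29 ± 0.06 on the log2 scale (edgeR adjusted p = 0.000742), and Psme4 (PA200) was at -0.02 ± 0.05 (edgeR adjusted p = 0.784). The sign of Psme4 turned under library-size scaling (0.03), without shGAA 1 (0.0028) and without shScrambled 2 (0.01).

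Nfe2l1, whose product activates subunit genes when proteasome activity is short, did not pass the test. It was at 512.7, 529.6 and 484.5 CPM in shGAA 1 to 3 and at 518.9, 534.3 and 544.7 in shScrambled 1 to 3, with overlapping groups and a log2 fold change of -0.07 ± 0.05 (n = 3 per group, edgeR adjusted p = 0.275). Ddi2, the protease that releases the active factor, was at 0.17 ± 0.10 (edgeR adjusted p = 0.203). The small Maf genes, whose products pair with NRF1 and NRF2, moved more. Maff was at 28.6, 29.6 and 33.5 CPM against 80.9, 81.5 and 71.4, a log2 fold change of -1.35 ± 0.08 (edgeR adjusted p = 1.66e-09). Mafk changed by -0.50 ± 0.07 (edgeR adjusted p = 2.72e-05), while Mafg was at 0.16 ± 0.08 (edgeR adjusted p = 0.133). Amounts of protein and proteasome activity were not measured here.

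Among genes that deliver substrates, the shuttle receptor Rad23b fell by 0.31 ± 0.04 on the log2 scale (n = 3 per group, edgeR adjusted p = 3.55e-05), and Ubqln4 by 0.22 ± 0.07. Ubqln2 rose by 0.20 ± 0.06 (edgeR adjusted p = 0.0159), a call lost in DESeq2 (adjusted p = 0.0515) and on leaving out shGAA 2 or shScrambled 2 (adjusted p = 0.105 and 0.0682). The 2 falls of this list were 1 without shGAA 2, shGAA 3 or shScrambled 1 and under library-size scaling. The ubiquitin-activating enzyme gene Uba6 rose by 0.37 ± 0.07 (edgeR adjusted p = 0.000247), and Uba1, which encodes another such enzyme, fell by 0.13 ± 0.04 on the log2 scale (edgeR adjusted p = 0.0262). Of the 6 genes in the list of ubiquitin genes and activating enzymes 2 fell and 1 rose. The falls were 1 without shGAA 1, shGAA 3, shScrambled 2 or shScrambled 3, and the rises were 2 without shScrambled 2 or 3. Of p97, the segregase that hands substrates to the proteasome, and its cofactors, 1 of 8 fell, Faf2 (-0.22 ± 0.05, edgeR adjusted p = 0.00328).

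**Figure D5:**
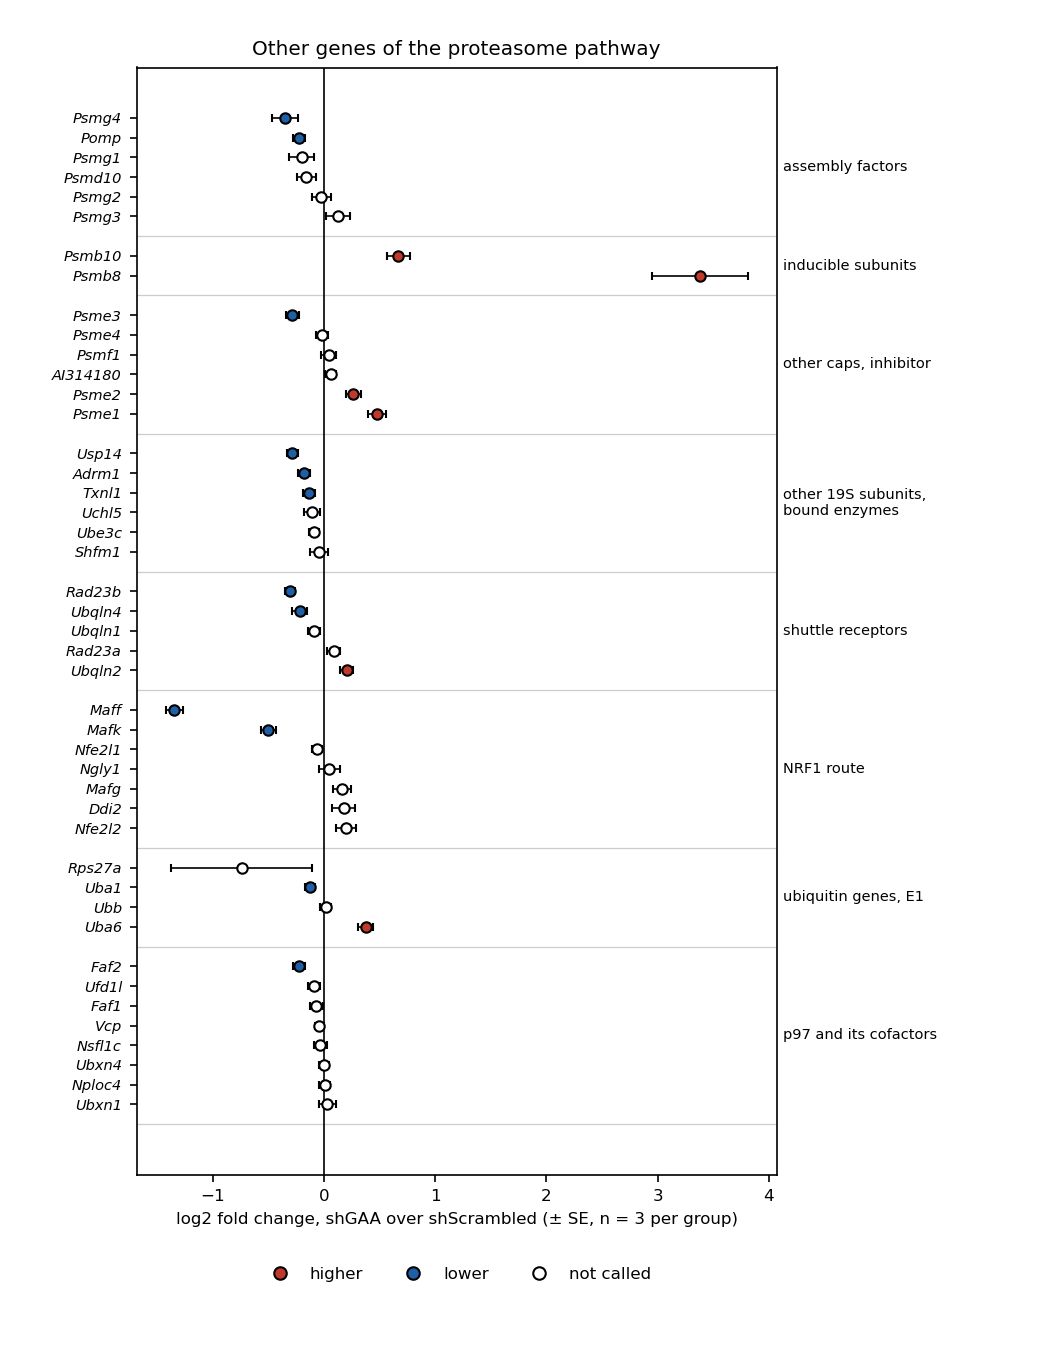
Points are the log2 fold changes of 44 of the 46 tested pathway genes, shGAA over shScrambled, with bars of 1 SE (n = 3 libraries per group), red or blue where the edgeR test passed. Psmb8 at 3.38 and Maff at -1.35 lie farthest from 0, and the open point of Rps27a carries a wide bar. The value of Psmb8 rests on controls with 1, 2 and 5 reads.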

How the data were processed

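The values deposited by the authors are whole-number read counts by gene symbol, unnormalized, in a column for each of the 6 libraries. The submitters' processing notes name mm10, HISAT2 2.1.0, Subread, FastQC and edgeR. The annotation, strand setting and handling of multi-mapping reads are not given in the sources used. Genes were kept by filterByExpr (11801 tested, 99.9% of counts), libraries were scaled by TMM and groups were compared with edgeR's quasi-likelihood test (edgeR 4.0.16, run in R 4.3.3) with a robust dispersion fit and no covariates. The p-values were adjusted by Benjamini-Hochberg across the tested genes, with calls at an adjusted p under 0.05. Changes are log2 of shGAA over shScrambled with the SE. "Fell", "rose" and "lower" denote calls. Alternatives used limma-voom (limma 3.58.1), DESeq2 1.42.0, other scalings, no filter, a non-robust fit, the replicate block and each library left out. Counts for 11696 genes were simulated with few changed genes, drawn from all expression levels. Changes of 1.5-fold were recovered for 76.1% of the genes so changed. Changes of 1.15-fold, near the size of many reported here, were recovered for 8.96%, and 7.94% of all calls fell on unchanged genes. In the real data 38.2% of genes were called, and the median SE was 0.05 for the subunits and 0.08 for all genes. The 8.96% therefore does not apply to the subunits, for which recovery was not simulated. Shared 50-base stretches and lengths came from GENCODE M21 and promoters from RefSeq (GRCm38.p6). Names follow a rule (catalytic subunits, Psmd14 and Psmd4, the 2 leading calls per part or pathway list, Nfe2l1, Ddi2, Usp14, Psme4). Psme2, Psmg3, Ubqln4, Uba1, Txnl1, Mafg and the low genes were added after their values were seen. Members and lists were chosen with earlier results of these data known. Some genes that the rule or the lists hold are not reported here.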

Additional observations from a re-analysis of the deposited data

How the results depend on the processing

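Of the 13 alternatives, library-size scaling gave the fewest lower subunits, 5 (2 alpha, 1 beta, 1 ATPase, 0 other base, 1 lid, 0 chaperone), a median log2 fold change of -0.0932, a summed change of -4.915% and 8 lower pathway genes (1 assembly, 1 cap-bound, 1 shuttle, 1 ubiquitin). It also made 60.01% of all calls higher ones, from 48.4%, and put Psmd6 at 0.046, Psmd8 at 0.0236 and Psme4 at 0.0276. DESeq2 gave 12 lower subunits, with 3 beta, 2 lid and 0 chaperone genes, 1 lower assembly factor, 0 higher shuttle receptors and 2 higher ubiquitin genes, and 1565 higher and 1867 lower genes in all. The non-robust fit and limma-voom also gave 2 higher ubiquitin genes, and no filter gave 1 higher gene of the NRF1 route. Same-numbered libraries did not deviate together (r = -0.04, 0.06 and -0.01), and the labels give no shared source. With the replicate block 14 subunits were lower, with 2 lid genes, 0 chaperones and 1 lower ubiquitin gene. Leaving out 1 library gave 8 to 20 lower subunits (2 to 4 alpha, 2 to 5 beta, 1 to 3 ATPase, 0 to 2 other base, 1 to 5 lid, 0 to 1 chaperone) and 8 to 11 lower pathway genes. By list these were 1 to 2 assembly, 1 to 3 cap-bound, 1 to 2 shuttle and 1 to 2 ubiquitin genes, with 0 to 1 higher shuttle, 1 to 2 higher ubiquitin and 0 to 1 higher NRF1 route genes. The share of all tested genes called lower was 15.6% to 20.9% without 1 library and 15.9% under library-size scaling. It was 15.1% in DESeq2 and 18.6% with the replicate block. Without 1 library the log2 fold change spanned 0 for Psmc3 (-0.0152 to 0.0712), Psmd4 (-0.0142 to 0.053), Psmd6 (-0.0311 to 0.043), Psmd8 (-0.0936 to 0.0169), Psmd9 (-0.0006 to 0.0855) and Psme4 (-0.0478 to 0.0116). Over the named genes taken singly, the 33 subunits included, 571 gene values under an alternative kept their direction and side of the threshold. Of the others, 73 lost the call, 4 gained it and 15 changed sign, none of the last among called genes. Most lost calls and most sign changes were those of subunits. The 4 gained calls were those of Psma7, Psmc2, Psmc6 and Psmd13. The causes were not tested. Depth limits small changes in low genes such as Psmg4, at 98 to 134 counts per library. Psmb8, at 1 to 36 counts per library, was near the floor in the controls, so the size of its change is uncertain.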
